A study of Rattus norvegicus with 9 samples.

Results

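The miR-181 family is a set of closely related microRNAs that share 1 seed on their 5p arms, and here it comprised every mature miRNA named miR-181a, miR-181b, miR-181c or miR-181d, whichever hairpin or arm it came from. That rule found 9 of the 465 mature miRNAs listed, namely 4 products of the 5p arm (rno-miR-181a-5p, rno-miR-181b-5p, rno-miR-181c-5p and rno-miR-181d-5p) and 5 of the 3p arm (rno-miR-181a-1-3p, rno-miR-181a-2-3p, rno-miR-181b-1-3p, rno-miR-181b-2-3p and rno-miR-181c-3p), written below without the rat prefix. All 9 passed the filter on low counts in both comparisons. Small RNA came from dissected retinas of Sprague Dawley rats, wild type throughout, with 3 libraries in each of 3 groups. Sham controls were taken on postnatal day 14 (sham P14), and rats that had oxygen-induced retinopathy on day 14 (OIR P14) or day 29 (OIR P29). There was no sham group at day 29, so age and stage of the model change together in the later comparison. The retinopathy models the eye disease of premature infants: altered oxygen in newborn animals arrests the growth of retinal vessels, and abnormal vessels follow. The labels used here give neither the oxygen schedule nor the number of animals behind a library.

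A microRNA gene is transcribed into a hairpin, whose stem is cut into a short duplex with a 5p and a 3p strand. Usually 1 strand is loaded into an Argonaute protein, where its seed, bases 2 to 8, pairs with target messenger RNAs, and the other strand is degraded. In the fish and mouse retina miR-181a and miR-181b are known from the inner retina, where they have been linked to the growth of amacrine and ganglion cell axons and, in mouse, to the control of mitochondrial turnover. Outside the nervous system the family is best known from lymphocyte development in mouse.

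The mature sequences are shown because the family members are told apart by few bases, and because the seed, in capitals, sorts them into groups. They are RefSeq's, from the rat build GRCr8, written 5′ to 3′. The 4 products of the 5p arm carried the same seed.
miR-181a-5p: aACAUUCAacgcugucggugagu
miR-181b-5p: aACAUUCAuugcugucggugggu
miR-181c-5p: aACAUUCAaccugucggugagu
miR-181d-5p: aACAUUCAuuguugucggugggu
Among the 3p products with a sequence, miR-181a-1-3p and miR-181c-3p shared a seed, while miR-181a-2-3p and miR-181b-1-3p each had a seed of their own. No mature sequence of miR-181b-2-3p was found in the RefSeq source, so its seed was not compared.
miR-181a-1-3p: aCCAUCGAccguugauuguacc
miR-181c-3p: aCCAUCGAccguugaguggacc
miR-181a-2-3p: aCCACCAAccguugacugu
miR-181b-1-3p: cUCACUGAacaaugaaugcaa
Of the 423 listed miRNAs whose sequence could be matched by name, 0 outside the family carried any of these seeds. miR-181a-5p and miR-181c-5p were 1 edit apart, as were miR-181b-5p and miR-181d-5p, whereas miR-181a-5p and miR-181b-5p were 3 edits apart and miR-181c-5p and miR-181d-5p 5. The seed-sharing 3p products miR-181a-1-3p and miR-181c-3p differed by 2 edits. The sources used here do not say how reads that could come from either of 2 such neighbours were counted, so the split of counts between members 1 edit apart is uncertain.

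The hairpins lie in 3 pairs. In GRCr8 the mature sequences of Mir181a-1 and Mir181b1 lie on chromosome 13, with miR-181a-5p at chr13:52037081-52037103 and miR-181b-5p at chr13:52037263-52037285, both on the plus strand and within the uncharacterised locus LOC108352541. Mir181a2 (chr3:43025563-43025679, plus strand) and Mir181b2 (chr3:43026666-43026753, plus strand) lie inside the span of Nr6a1, an orphan nuclear receptor gene. Mir181c (chr19:40888291-40888396, plus strand) and Mir181d (chr19:40888474-40888556, plus strand) lie 78 bases apart, outside any other annotated gene and next to Nanos3. The sequence of miR-181a-5p is the same from both of its hairpins, and that of miR-181b-5p is found in the Mir181b2 hairpin too, so counts of these 5p products cannot be assigned to a locus, whereas the names of the 3p products give their hairpin. The hairpin of Mir181c is shown because miR-181c-3p changed most at the later age. The capitals mark miR-181c-5p, on the left, and miR-181c-3p, on the right.
Mir181c: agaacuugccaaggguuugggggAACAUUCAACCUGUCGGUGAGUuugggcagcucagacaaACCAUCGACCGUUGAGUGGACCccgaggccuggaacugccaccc

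Total counts per library ranged from 11808893 to 15260603 over the same 465 miRNAs. The photoreceptor miRNA miR-182 alone took 59.3% to 68.1% of each library, so levels are given as CPM scaled by TMM over all 9 libraries (normalised CPM), and ratios between members of 1 library, which need no scaling, are given beside them. The lowest count of any member was 41, for miR-181b-2-3p, which was also the least precisely measured. The library outside the closest pair of its group was sham library 27, OIR P14 library 38 and OIR P29 library 47. Any group of 3 has such a library, so this does not mark them as outliers. The 6 calls at P29 below were the same without 38 and 47. The labels describe biological samples in triplicate without saying which animals they came from, so p-values measure only the spread between these libraries, which may be technical. In whole retina, fewer cells of a type and less RNA per cell cannot be told apart. The retinal label was met by its photoreceptor miRNAs, miR-182, miR-183-5p and miR-96-5p, which summed to 608874 to 886389 normalised CPM per library.

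miR-181a-5p was the second most abundant miRNA of the retina in every group, behind miR-182. It stood at 131913, 101482 and 134430 normalised CPM in the sham P14 libraries, at 119179, 136310 and 107035 in OIR P14, and at 116099, 108599 and 100648 in OIR P29. The 3 groups overlapped throughout. It made up 89.6% to 91.0% of all family counts in every library, and the family took 11.2% to 15.2% of all counts.

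Next in level came miR-181b-5p and miR-181c-5p, the higher of them 19.0 to 21.9 times below miR-181a-5p in group means. miR-181b-5p stood at 6323, 4737 and 6391 normalised CPM in sham P14, 5810, 5599 and 4415 in OIR P14, and 6159, 5958 and 5047 in OIR P29. miR-181c-5p stood at 5114, 5220 and 5372 normalised CPM in sham P14, 5247, 5861 and 5446 in OIR P14, and 4167, 4056 and 4058 in OIR P29. At day 14 the ranges of these members overlapped and neither was above the other in all 3 libraries of a group, while in OIR P29 miR-181b-5p was above miR-181c-5p in 3 of 3 libraries. miR-181d-5p, from the same gene pair as miR-181c-5p, was 8.83 to 13.1 times scarcer within a library, at 501, 473 and 608 normalised CPM in sham P14, 536, 555 and 447 in OIR P14, and 367, 369 and 310 in OIR P29.

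Products of the 3p arm took 0.647% to 1.14% of family counts. The most abundant was miR-181a-1-3p, the passenger strand of the chromosome 13 hairpin, at 978, 976 and 1191 normalised CPM in sham P14, 1037, 1036 and 924 in OIR P14, and 597, 612 and 577 in OIR P29. It exceeded miR-181d-5p in every library, so a 3p product stood above a 5p product of the same family. miR-181c-3p and miR-181a-2-3p were alike in level at day 14, at 178 ± 13.1 and 176 ± 23.1 normalised CPM in OIR P14 (SD, n = 3 each), with overlapping ranges. In OIR P29 they no longer overlapped, at 83.1 ± 2.94 and 128 ± 6.73 normalised CPM (SD, n = 3 each). miR-181b-1-3p and miR-181b-2-3p were the scarcest members, at 15.3 ± 1.77 and 5.34 ± 2.28 normalised CPM in OIR P14 (SD, n = 3 each). The counts of miR-181b-2-3p were 42, 52 and 62 in sham P14, 103, 49 and 54 in OIR P14, and 52, 41 and 45 in OIR P29, OIR P14 library 11 standing above all others.

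**Figure D1:**
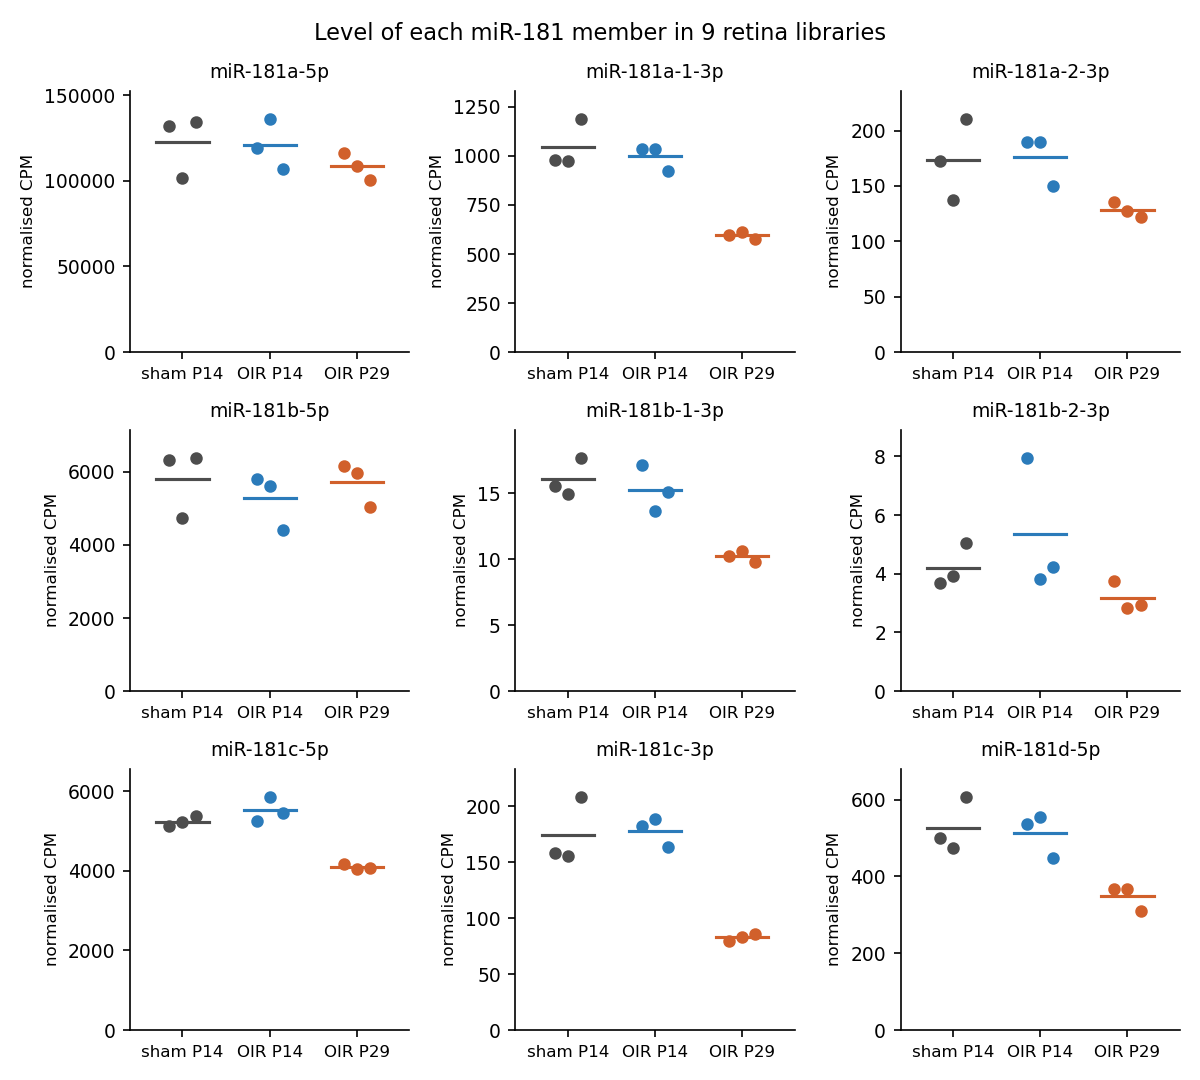
Normalised CPM of each miR-181 member (y axes start at 0, 1 panel a member) in the 9 libraries, with a point for each library and a bar for the group mean. The day 14 groups overlap in every panel, while the OIR P29 points lie below the OIR P14 points in 7 of 9 panels, all but miR-181a-5p and miR-181b-5p.

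The first comparison, of OIR P14 with sham P14, asks how the family differed between retinopathy and control retinas of the same age. No member differed detectably. By the quasi-likelihood test of edgeR, Benjamini-Hochberg adjusted, 0 of 9 members were called, where 1.69% of the 415 miRNAs tested were called, and adjusted p ran from 0.713 to 0.993. At an unadjusted p under 0.05 the count was also 0 (9.16% of all miRNAs tested), DESeq2 and limma-voom called 0 each, and the authors' deposited table called 0. The libraries of the 2 groups overlapped for all 9 members, whereas they did not overlap for 15.2% of all miRNAs tested.

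The intervals show how large a difference these libraries could still hold. miR-181a-5p had a log2 fold of 0.00 ± 0.14 SE, with a 95% interval from -0.31 to 0.32. miR-181c-5p, the most precisely measured member, had a log2 fold of 0.10 ± 0.08 SE and an interval from -0.09 to 0.29, and miR-181b-5p had -0.12 ± 0.15 SE with an interval from -0.46 to 0.22. Log2 folds of the remaining members ran from -0.05 for miR-181a-1-3p to 0.37 for miR-181b-2-3p, whose interval was the widest, from -0.34 to 1.08. The median log2 fold was 0.00 for the members and -0.03 for all miRNAs tested. Without sham P14 library 27, the lowest sham library for miR-181a-5p and miR-181b-5p, 0 members were called and 1 of all miRNAs was, in place of 7. The log2 folds were then -0.12 for miR-181a-5p and -0.25 for miR-181b-5p (edgeR adjusted p = 0.705 and 0.531). A change of the size seen later for miR-181c-3p lay outside the day 14 interval of that member, which ran from -0.28 to 0.38.

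OIR P29 was compared with OIR P14 to follow the retinopathy retina to the later age, and here the family separated. In all, 4 products of the 3p arm fell, miR-181c-3p most, together with both 5p products of the chromosome 19 pair, miR-181c-5p and miR-181d-5p. The abundant miR-181a-5p and miR-181b-5p did not pass the test. The same edgeR test called 6 of 9 members lower and 0 higher, where 23.8% of the 424 miRNAs tested were called lower and 22.9% higher. DESeq2, limma-voom and the authors' deposited table also called 6 each. In normalised CPM, OIR P29 libraries lay wholly below OIR P14 libraries for 7 of 9 members, against 27.1% of all miRNAs tested. Both figures depend on the TMM scaling and were not computed under another. The median log2 fold was -0.58 for the members and -0.01 for all miRNAs tested.

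miR-181c-3p stood at 183, 189 and 164 normalised CPM in the OIR P14 libraries and at 80.0, 83.3 and 85.9 in OIR P29. Every later library was at about the same level, well under the lowest earlier one, and the sham P14 libraries (159, 155 and 209) lay with the OIR P14 ones. Its log2 fold was -1.13 ± 0.09 SE, or 2.18 times lower (edgeR adjusted p = 0.000107). miR-181a-1-3p, which shares its seed, fell from 999 ± 64.8 to 595 ± 17.7 normalised CPM (SD, n = 3 each), with edgeR giving a log2 fold of -0.77 ± 0.08 SE (adjusted p = 0.000371). miR-181b-1-3p, from the same gene pair, fell from 15.3 ± 1.77 to 10.2 ± 0.404 normalised CPM (SD, n = 3 each; log2 fold -0.60 ± 0.13 SE, edgeR adjusted p = 0.00625).

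The 3p product of the chromosome 3 pair, miR-181a-2-3p, fell from 176 ± 23.1 to 128 ± 6.73 normalised CPM (SD, n = 3 each), the smallest fall among the 3p products called (log2 fold -0.49 ± 0.12 SE, edgeR adjusted p = 0.0129). miR-181b-2-3p, from the same pair, had a log2 fold of -0.78 ± 0.32 SE and was not called (edgeR adjusted p = 0.081). Its groups did not overlap in normalised CPM, the closest libraries being at 3.84 in OIR P14 and 3.77 in OIR P29, and its log2 fold was -0.32 without OIR P14 library 11.

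On the 5p side, miR-181c-5p fell from 5518 ± 313 to 4094 ± 63.7 normalised CPM (SD, n = 3 each), and edgeR gave a log2 fold of -0.45 ± 0.07 SE (adjusted p = 0.00156). Its neighbour miR-181d-5p fell from 513 ± 57.3 to 348 ± 33.4 (SD, n = 3 each; log2 fold -0.58 ± 0.12 SE, edgeR adjusted p = 0.00497). Neither miR-181a-5p, with a log2 fold of -0.18 ± 0.11 SE and a 95% interval from -0.43 to 0.07, nor miR-181b-5p, with 0.09 ± 0.13 SE and an interval from -0.22 to 0.40, was called (edgeR adjusted p = 0.201 and 0.602). miR-181a-5p was called lower without OIR P14 library 38 (log2 fold -0.27, edgeR adjusted p = 0.0454; range 0.0454 to 0.638 over 16 alternatives).

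**Figure D2:**
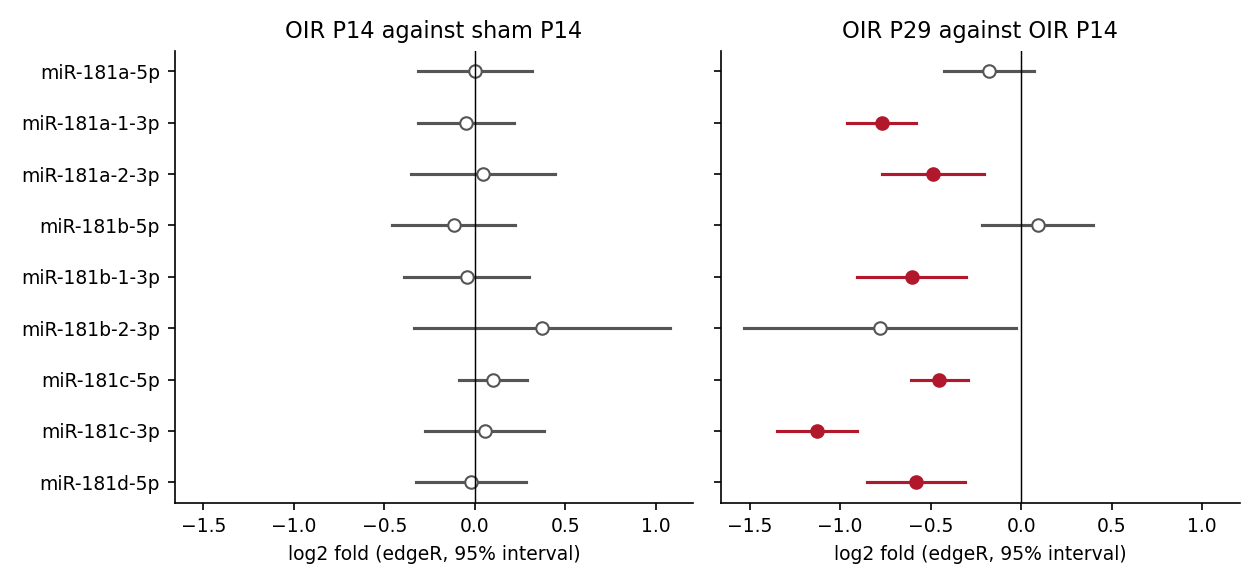
Log2 fold of each member (x axis) with its 95% interval from edgeR, for OIR P14 against sham P14 on the left and OIR P29 against OIR P14 on the right. Filled red points were called at adjusted p under 0.05. All 9 intervals on the left include 0, and the 6 called members on the right lie between -1.13 and -0.45.

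Scaling bears on these folds because miR-182 is so abundant. When only the totals were used for scaling, the median over all miRNAs of the P29 log2 fold moved from -0.01 to 0.25, and the members moved with it. Under that scaling miR-181c-3p (log2 fold -0.85), miR-181a-1-3p (-0.50) and miR-181d-5p (-0.30) were still called lower. miR-181c-5p (-0.19, edgeR adjusted p = 0.125), miR-181b-1-3p (-0.33, 0.0862) and miR-181a-2-3p (-0.21, 0.105) were no longer called, miR-181a-5p turned to 0.09, and miR-181b-5p was called higher (0.37, 0.00971). Leaving miR-182 out of the totals gave the same 6 calls as TMM.

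**Figure D3:**
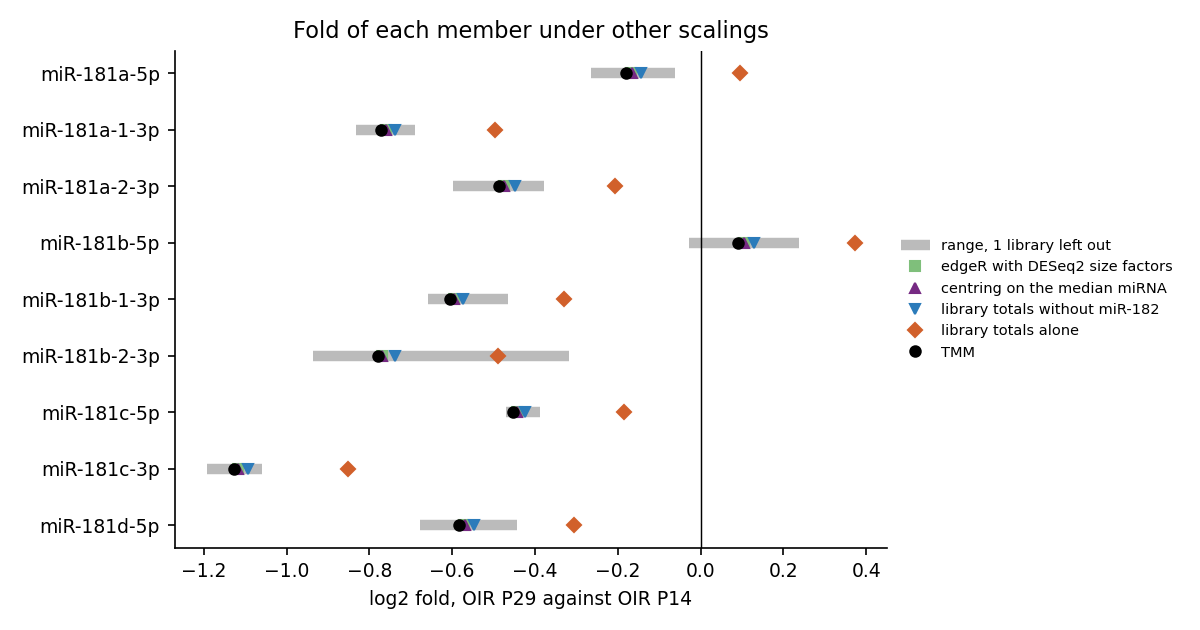
Log2 fold of each member for OIR P29 against OIR P14 (x axis) under TMM and 4 other scalings, with a grey bar for the range when 1 library was left out. Scaling on totals alone (orange diamonds) shifts every member to the right by a similar amount, so that miR-181a-5p moves to 0.09 and miR-181b-5p to 0.37, while the order of the members is kept apart from miR-181b-2-3p and miR-181a-1-3p, which change places.

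**Figure D4:**
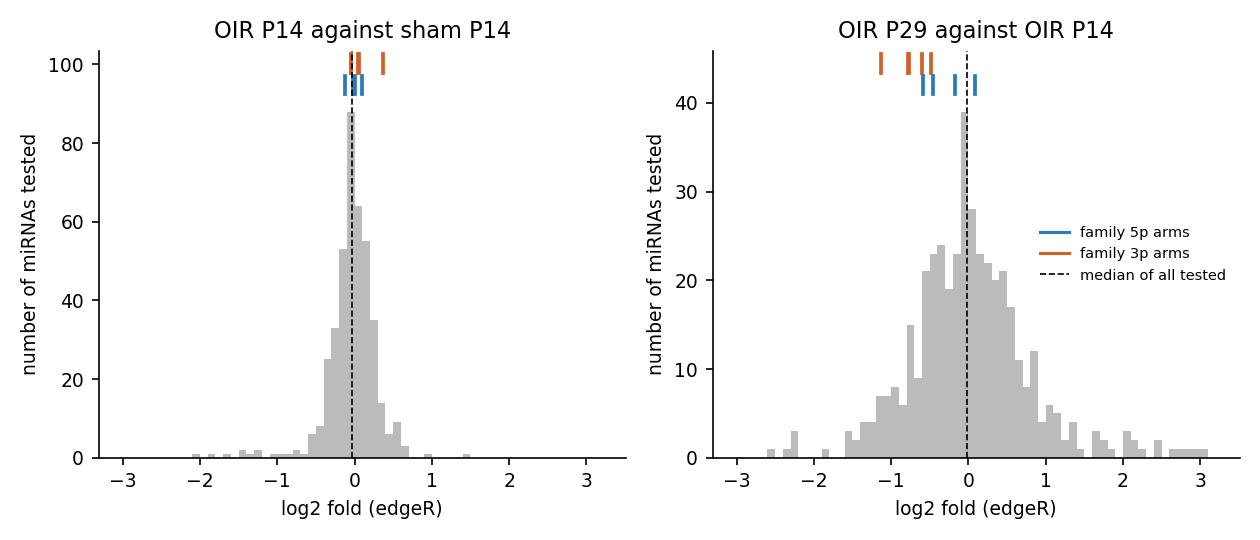
Histograms of the log2 folds of all miRNAs tested (415 on the left, 424 on the right; y axis, number of miRNAs), with ticks above for the family's 5p arms (blue) and 3p arms (orange) and a dashed line at the median. On the left the ticks sit around the median, apart from miR-181b-2-3p at 0.37, and on the right the 5 ticks of 3p arms lie between -1.13 and -0.49.

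Ratios between members of the same library do not depend on how libraries are scaled, and those of the 5p to the 3p arm were higher at day 29. miR-181c-5p exceeded miR-181c-3p by 25.7 to 33.6 times in sham P14 libraries, by 28.7 to 33.3 times in those of OIR P14 and by 47.2 to 52.1 times in those of OIR P29. The log2 ratio was higher by 0.67 in OIR P29 than in OIR P14, with SDs of 0.11 and 0.07 (n = 3 each), and was 0.03 apart between the day 14 groups. The ratio of miR-181a-5p to miR-181a-1-3p was 104 to 135 in sham P14, 115 to 132 in retinopathy at that age and 174 to 195 at day 29, and that to miR-181a-2-3p was 638 to 766, 628 to 718 and 826 to 859 in the same order. For miR-181b-5p the ratio to miR-181b-1-3p was 317 to 406 in the sham libraries, 293 to 411 in retinopathy at day 14 and 515 to 599 at day 29. Its ratio to miR-181b-2-3p ran from 1207 to 1721, from 730 to 1459 and from 1635 to 2096. All 5 ratios of the 5p to the 3p arm were thus higher in every OIR P29 library than in any OIR P14 library, and all but the last were also above every sham P14 library. How often other arm pairs separate OIR P29 from sham P14 was not computed, so that second separation cannot be judged. Between the day 14 groups 0 of 5 ratios separated, where 2.8% of all arm pairs were higher and 6.29% lower without overlap. These 5 ratios are not independent, since miR-181a-5p and miR-181b-5p each stand in 2 of them. Both of these 5p products can also come from 2 hairpins, while each 3p product comes from 1. Only the miR-181c ratio therefore sets 2 arms of 1 hairpin against each other, and in the others arm use and the part of each locus cannot be told apart. Even there the count of miR-181c-5p is uncertain, since it is 1 edit from the far more abundant miR-181a-5p and the split of reads is not known.

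An exact permutation test, 2-sided, gave p = 0.1 for each of the 5 ratios, the smallest that 3 libraries against 3 allow, and 0.225 after adjustment over 18 ratio tests. Over these 5 and the 139 other hairpin arm pairs tested, the ratio of the more to the less abundant arm was higher in OIR P29 without overlap in 20.8% and lower in 13.9%. Outside the family 25 were higher (18.0%) and 20 lower, with a median change of 0.01 on the log2 scale. A limma test fitted across all these pairs, chosen after the members' ratios had been seen, called 14 ratios higher (9.72%) and 9 lower (6.25%), with 3 of the family's among the higher. Those were miR-181c (log2 change 0.67 ± 0.12 SE, limma adjusted p = 0.013), the chromosome 13 product of miR-181a (0.59 ± 0.12, 0.0187) and that of miR-181b (0.69 ± 0.16, 0.0282). The chromosome 3 ratios were not called, with log2 changes of 0.30 ± 0.12 SE for miR-181a-2-3p (limma adjusted p = 0.122) and 0.80 ± 0.26 SE for miR-181b-2-3p (0.0844).

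Of the 4 ratios between 5p products, 3 separated OIR P29 from OIR P14. miR-181b-5p was 0.0411 to 0.0487 of miR-181a-5p in OIR P14, against 0.0501 to 0.0549 at day 29, a log2 ratio higher by 0.27 with no overlap. Relative to miR-181a-5p, the log2 ratio of miR-181c-5p dropped by 0.28 and that of miR-181d-5p dropped by 0.40, both without overlap. The log2 ratio of miR-181c-5p to miR-181d-5p, members of 1 gene pair, was 3.43 in OIR P14 and 3.56 in OIR P29, with overlapping libraries (2-sided exact permutation p = 0.4, n = 3 each). For the 3 ratios without overlap the exact permutation p was 0.1 each (n = 3 each), the smallest possible, and 0.225 after adjustment. All 3 are taken to miR-181a-5p, so they are not independent. How often ratios between other miRNAs separate these groups was not computed. At day 14 none of the 4 ratios between 5p products separated the groups.

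**Figure D5:**
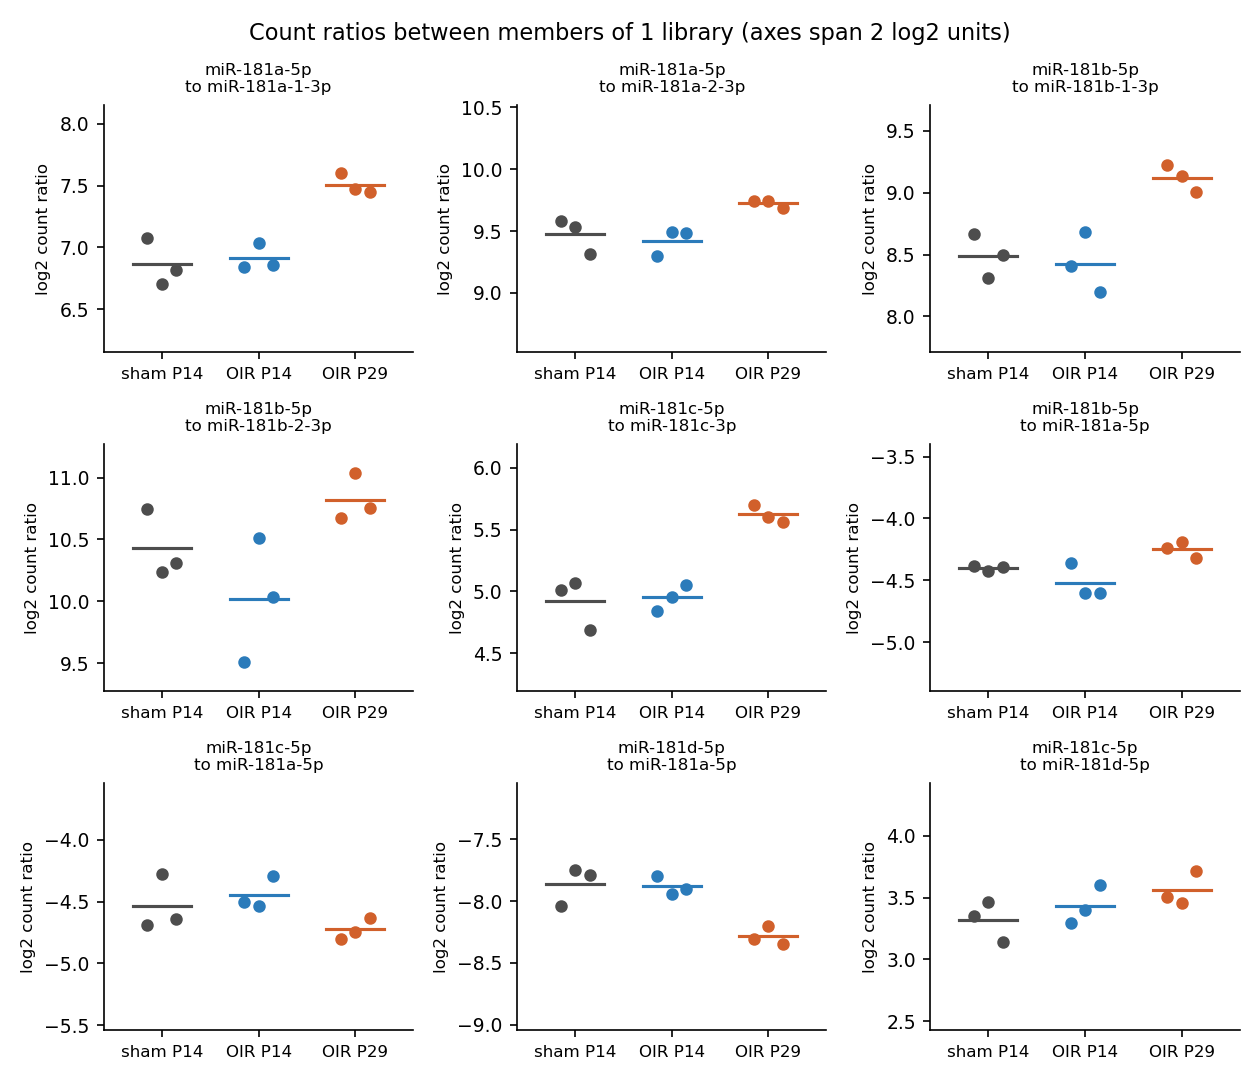
Log2 ratio of the counts of 2 members of the same library (y axes each span 2 log2 units) for the 3 groups, with a point for each library and a bar for the mean. The first 5 panels, of 5p to 3p arms, show every OIR P29 point above every OIR P14 point, and the panels of miR-181c-5p and miR-181d-5p to miR-181a-5p show OIR P29 below OIR P14.

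The share of the library taken by the whole family is given with and without miR-182 in the total. It was 12.1% ± 1.01 in OIR P14, against 12.9% ± 0.634 at the later age (SD, n = 3 each), with overlapping libraries. Of the counts left after miR-182 was set aside it was 36.2% ± 2.48 and 32.6% ± 2.33 (SD, n = 3 each), again with overlap, so its direction turned with the denominator.

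Markers of other cells moved at P29 as well, and their part in the members' changes was not tested. Of all miRNAs tested, 22.9% were called higher at P29 and 23.8% lower, beside which the counts for these short lists stand. The photoreceptor list summed to 720036 to 886389 normalised CPM in OIR P14, against 608874 to 640745 at day 29, with 2 of 3 members called lower and 1 higher. The pigment epithelium miRNAs rose, 2 of 2 being called higher, from 18390 to 23989 up to 31153 to 35605. Endothelial miRNAs (2 of 2 called higher) went from 165 to 304 up to 480 to 535, and those of mural cells, which wrap vessels (3 of 3 tested called higher, 4 listed), from 298 to 605 up to 1478 to 1546. Erythroid miRNAs summed to 988 to 1023 and then 1067 to 1157, nearly all of it miR-486, which was not called (log2 fold 0.10 ± 0.07 SE). The 3 of 4 called higher were scarce, miR-451-5p going from a mean of 1.22 to 10.5 normalised CPM (log2 fold 3.08 ± 0.25 SE), with miR-144-3p and miR-144-5p under 4 in both groups. The lymphocyte and myeloid list had 1 of 5 called higher and ran from 38.4 to 59.2 and then 70.1 to 83.4 normalised CPM. The lens and corneal list had 0 of 4 tested members called and reached 1949 in 1 OIR P29 library, and the muscle list had 0 of 1 tested. Across all these lists 0 of the listed markers had a count of 0 in a whole group. At day 14, 1.69% of all miRNAs tested were called lower and 0 higher. The endothelial list then had 2 of 2 members called lower and the mural list 2 of 3. The erythroid list had 1 of 2 called lower and the lymphocyte and myeloid list 1 of 4, while 0 members of the miR-181 family were. Those 6 calls were made with all libraries, and without sham library 27 only 1 miRNA of all tested was called.

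Wider lists place the family beside related miRNAs. Among 11 neuronal miRNAs, edgeR called 0 at day 14, and at P29 3 higher and 3 lower, where 22.9% of all miRNAs tested were higher and 23.8% lower. Those with the smallest p were miR-129-5p (log2 fold 0.88 ± 0.11 SE), miR-124-5p, the passenger strand of the neuronal miR-124 (-0.53 ± 0.08), and miR-9a-5p, a regulator of neural progenitors (-0.41 ± 0.07), with edgeR adjusted p of 0.000798, 0.00156 and 0.00237. The far more abundant strand, miR-124-3p, did not fall, with means of 5196 normalised CPM in OIR P14 and 6772 in OIR P29. It was not called (log2 fold 0.36 ± 0.13 SE, edgeR adjusted p = 0.052). Among 11 miRNAs with reported mitochondrial targets, 0 were called at day 14, and at P29 5 were higher and 2 lower, beside the same shares of all miRNAs; DESeq2 and limma-voom called 6 each. By p, the leading ones were miR-210-3p, which hypoxia induces (0.88 ± 0.08), miR-338-3p, which promotes oligodendrocyte maturation (0.82 ± 0.12), and miR-23a-3p, of the endothelium-enriched miR-23/27/24 clusters (0.80 ± 0.15). Their edgeR adjusted p was 0.000125, 0.00156 and 0.00407. The 2 called lower were miR-378a-3p, the most abundant of the list (-0.51 ± 0.13), and miR-378a-5p (-0.23 ± 0.08). Their edgeR adjusted p was 0.017 and 0.0472. The list summed to 2840 to 3658 normalised CPM in OIR P14 and to 2482 to 2866 in OIR P29, with overlap. At an unadjusted p under 0.05 the day 14 counts were 0 neuronal and 1 mitochondrial, and DESeq2 and limma-voom called 0 members of either list.

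The profiles most like those of the family were sought by the root mean square difference of centred log2 normalised CPM over the 9 libraries, as a description. Nearest to miR-181a-5p among 266 other miRNAs were miR-434-3p (0.09), miR-872-5p (0.10) and miR-151-3p (0.11), where the median difference was 0.29. Nearest to miR-181c-3p were miR-488-3p (0.10), miR-106b-5p (0.12) and miR-34c-5p (0.12), with a median of 0.55. These had log2 folds at P29 of -1.07, -1.24 and -1.03. Folds near that of miR-181c-3p follow from choosing by likeness over the same libraries.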

How the data were processed

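Total RNA with small RNA was taken from dissected rat retinas and, per the labels' protocols, sequenced as single-end reads of 50 bases. The authors deposited raw counts per mature miRNA in 2 tables, which hold the same OIR P14 counts (1395 of 1395 values identical). Beside them stand the authors' log2 folds and false discovery rates (adjusted p-values); limma is named in the submitters' processing notes. The sources used here do not give the aligner, counter, genome build or annotation. Columns are headed by numeric library codes that the labels do not explain: the codes found in both tables were taken as OIR P14, the group that both comparisons share, and the others as the remaining group of each table.

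Counts were tested with edgeR 4.0.16 in R 4.3.3 (TMM, filterByExpr with a minimum count of 10 and total of 15, quasi-likelihood F test, Benjamini-Hochberg over all miRNAs tested, called at adjusted p under 0.05), each comparison on its own 6 libraries. Alternatives used DESeq2 1.42.0, limma 3.58.1, other scalings, no filter, 1 fit of all libraries, and each library left out. Ratios and shares were compared by exact permutation, 2-sided. Every member was named, together with the 3 miRNAs nearest in profile to the most abundant and the most changed member and the 3 with the smallest p in each wider list. The arms of miR-378a and miR-124-3p were named besides, to show both directions within those lists. Members and lists were chosen with earlier results of these data known.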

Additional observations from a re-analysis of the deposited data

How the results depend on the processing

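With libraries scaled on totals alone, 3 members were called lower at P29 and 1 higher, and over all miRNAs 148 were called higher and 53 lower, against 97 and 101 under TMM. The median log2 fold of all miRNAs moved to -0.21 at day 14 and to 0.25 at P29 under that scaling. Log2 folds that changed sign at day 14 were those of miR-181a-5p (-0.18 with totals alone, -0.048 with totals without miR-182, -0.016 in the authors' deposited table), miR-181a-2-3p (-0.14 and -0.0033 under the same 2 scalings), miR-181c-3p (-0.13) and miR-181c-5p (-0.079) with totals alone, and miR-181d-5p (0.0021 with DESeq2 size factors, 0.0023 with median centring, 0.0047 with DESeq2). At P29 only miR-181a-5p did (0.095, totals alone). The family's share changed by -3.55 percentage points at P29 without miR-182, against 0.78 with it. The limma test over all arm pairs, added after the data were seen, called changes that the exact test could not, of 0.67 (miR-181c), 0.59 (miR-181a-1) and 0.69 (miR-181b-1).

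With 1 library left out, 6 to 7 members were called at P29 and 0 at day 14. Day 14 log2 folds then ran from -0.10 to 0.077 (miR-181a-1-3p), -0.11 to 0.23 (miR-181a-2-3p), -0.12 to 0.094 (miR-181a-5p), -0.13 to 0.051 (miR-181b-1-3p), -0.036 to 0.57 (miR-181b-2-3p), -0.030 to 0.23 (miR-181c-3p) and -0.10 to 0.12 (miR-181d-5p), and that of miR-181b-5p at P29 from -0.027 to 0.24. Day 14 log2 ratios ran from -0.034 to 0.15 (miR-181a-5p to miR-181a-1-3p), -0.13 to 0.0089 (to miR-181a-2-3p), -0.19 to 0.053 (miR-181b-5p to miR-181b-1-3p), -0.088 to 0.10 (miR-181c arms) and -0.11 to 0.035 (miR-181d-5p to miR-181a-5p). The cause was not tested. No paired analysis was possible because the count columns carry no replicate numbers. Counts of 41 to 103 limit miR-181b-2-3p most.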
